A study of Mus with 30 samples.

Results

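The muscle actins Actc1, Acta1 and Acta2 were followed in cardiac RNA from 30 C57BL/6 mice, as 3 of the 36503 transcript identifiers that the 30 tables hold together. They were taken by identifier, ENSMUST00000090269 for Actc1, ENSMUST00000034453 for Acta1 and ENSMUST00000039631 for Acta2, and all 3 were present in every table and passed the filter on low values in every comparison. Angiotensin II (Ang II) was infused in all but the Control group. Treated groups also received ethoxysanguinarine (AngII+ETH), baicalin (AngII+BAI) or gastrodin (AngII+GAS), each at a daily dose of 5 mg/kg, or valsartan (AngII+VAL), for which the daily dose was 10.4 mg/kg. The AngII group received the same infusion, 500 ng/kg/min for 28 days, with saline in place of a drug, and the Control group received saline for both. By the labels each group held 5 mice. The paper gives a different group size and describes the Control, AngII and gastrodin groups only. Ang II is a hormone that constricts vessels and raises blood pressure, and valsartan blocks its type 1 receptor in clinical use. For the groups described in the paper, the mice were male and RNA came from the left of the lengthwise parts of each heart, so the values describe mixed tissue in which fewer cells of a type and less RNA per cell cannot be told apart.

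Actins are the proteins that polymerise into thin filaments, along which myosin pulls to shorten the sarcomere. The alpha-actins of muscle are encoded by separate genes. Actc1 encodes cardiac alpha-actin, the form that makes up most of the thin filament in the adult rodent heart. Acta1 encodes skeletal alpha-actin, which is present in the fetal and newborn rodent heart, is low in the adult ventricle and is widely used as a marker of the fetal gene programme of pressure overload. Acta2 encodes smooth muscle alpha-actin, found in vessel walls and in activated fibroblasts. In the RefSeq annotation of GRCm38.p6, the assembly also called mm10, Actc1 lies on chromosome 2 from 114047282 to 114052875, Acta1 on chromosome 8 from 123891758 to 123894775 and Acta2 on chromosome 19 from 34240336 to 34255585, each as a protein-coding gene. The coding sequences of these genes are closely alike and no source used here names the tool that assigned the reads, so the division of shared reads between the members is uncertain. Each value belongs to 1 transcript, and other models of the same genes were not added to it.

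No source used here states the unit. Since the values hold fractions and add up to a different total in each mouse, they were taken as FPKM, which corrects for the size of the library and the length of the transcript. Sequencing depth cannot be read from them. The sums ran between 562189 and 654188 per mouse, and between 16808 and 20446 transcripts reached 1 FPKM. Neither the files nor the reference used here pair Ensembl identifiers with gene names (0 paired), and the names of the 3 actins came with the choice of their identifiers. The lists of sarcomere, serum response factor, smooth muscle, fibroblast and skeletal muscle genes were therefore not analysed here. The tissue was not checked against other markers.

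Actc1 was among the most abundant transcripts of every heart, and its level overlapped in all 6 groups. It ranked between 8 and 14 by level in the 30 mice, with a median of 6189 FPKM. The Actc1 level was 5798, 6692, 6567, 6796 and 7282 FPKM in the AngII+ETH mice. In the AngII+BAI mice it was 6003, 5093, 5202, 6098 and 6236 FPKM. In the AngII+GAS mice it was 5481, 6328, 6248, 5848 and 6103 FPKM. The ranges of these groups overlapped. In the AngII+VAL mice Actc1 was at 5776, 6825, 5529, 6468 and 6163 FPKM. The AngII mice had 6215, 7410, 8025, 5903 and 5090 FPKM, against 5896, 8017, 5802, 6611 and 6434 FPKM in the Control mice. The AngII and Control groups thus overlapped over most of their range, with highest values of 8025 FPKM in AngII and 8017 FPKM in Control.

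Mean Actc1 was 6627 ± 537 FPKM in AngII+ETH, 5726 ± 537 in AngII+BAI, 6001 ± 344 in AngII+GAS, 6152 ± 520 in AngII+VAL, 6529 ± 1181 in AngII and 6552 ± 888 in Control (SD, n = 5 each). AngII+ETH was highest by mean, followed by Control, AngII, AngII+VAL, AngII+GAS and AngII+BAI. No pair of neighbours in this order differed beyond its spread, with exact permutation p between 0.302 and 0.913. The adjusted p was 0.929 or more over the 25 neighbour pairs examined in all measures. Here and for the other measures, neighbours were picked by sorting the same means, which favours small gaps. The ends of this order, AngII+ETH and AngII+BAI, were not compared with each other. The log2 fold change of Actc1 between AngII and Control was -0.01, with a 95% interval of -0.32 to 0.29 (limma, adjusted p = 0.982). For AngII+BAI minus Control it was -0.19 with an interval of -0.42 to 0.04 (adjusted p = 0.651, limma). After quantile normalization the Actc1 value was -0.38 for AngII+BAI minus Control (adjusted p = 0.594, limma) and -0.36 for AngII+GAS minus Control (unadjusted p = 0.0396, adjusted p = 0.529, limma), where the value without that step was -0.12. A steady level of Actc1 is therefore not shown.

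Acta1, the skeletal isoform, varied far more than Actc1. The Acta1 level was 924, 745, 882, 1171 and 759 FPKM in the AngII+ETH mice. In the AngII+BAI mice it was 682, 564, 585, 947 and 1046 FPKM. In the AngII+GAS mice it was 465, 1018, 778, 674 and 710 FPKM. All 15 of these hearts lay above every Control heart. The AngII+VAL mice had 401, 544, 375, 964 and 580 FPKM of Acta1, which is also above every Control heart. The AngII mice had 224, 2164, 695, 1050 and 722 FPKM of Acta1, against 131, 275, 108, 341 and 93.7 FPKM in the Control mice. The AngII and Control groups overlapped because AngII replicate 1, at 224 FPKM, lay below Control replicates 2 and 4, at 275 and 341 FPKM. Of the 25 mice that received Ang II, 24 had more Acta1 than the highest Control mouse, a count in which all groups are set against the same 5 Control mice.

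**Figure D1:**
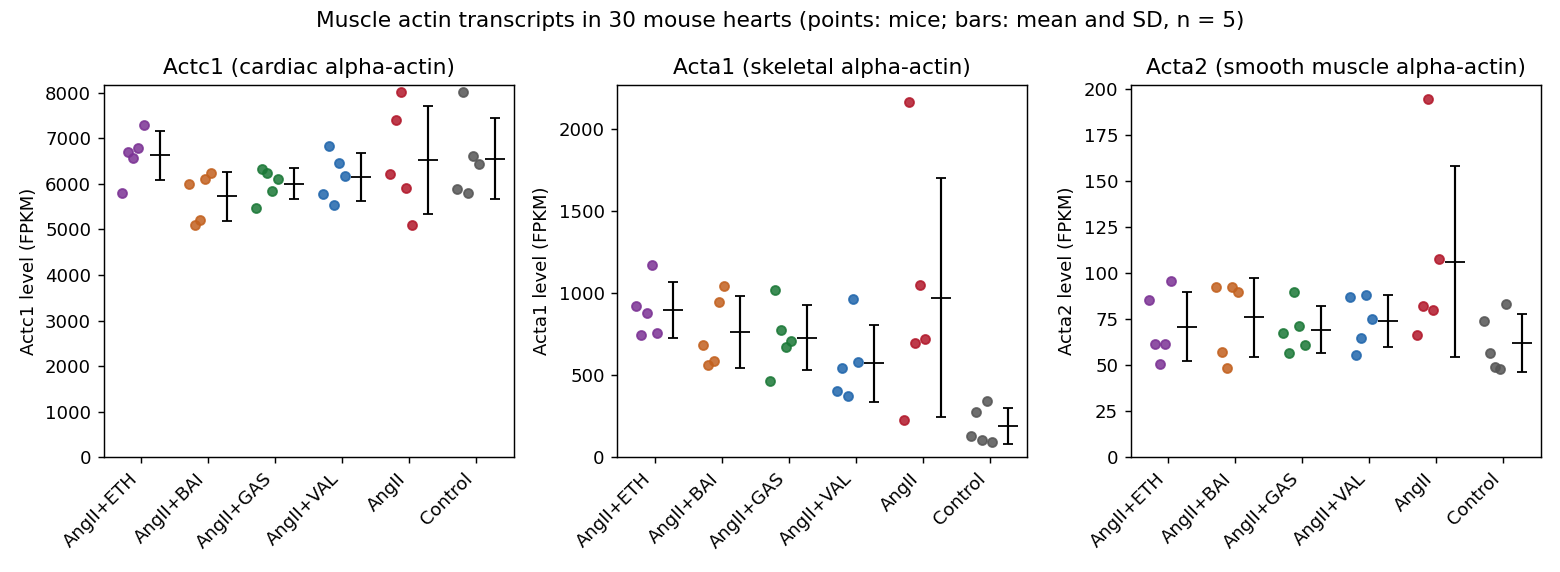
Level in FPKM (vertical axes, linear, a separate scale for each transcript) of Actc1, Acta1 and Acta2 in the 6 groups (horizontal axes), with 1 point per mouse and the mean with SD (n = 5) beside the points. Acta1 was above the highest Control value of 341 FPKM in every mouse of the treated groups and in 4 of 5 AngII mice, whereas Actc1 and Acta2 overlapped in all groups.

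Mean Acta1 was 896 ± 172 FPKM in AngII+ETH, 765 ± 219 in AngII+BAI, 729 ± 200 in AngII+GAS, 573 ± 236 in AngII+VAL, 971 ± 729 in AngII and 190 ± 111 in Control (SD, n = 5 each). By these means AngII was highest, the treated groups followed in the order in which they are given here, and Control was lowest. By geometric means, that is on the log2 scale, AngII+ETH was above AngII, at 884 against 761 FPKM. The other treated groups stayed below AngII, at 741 FPKM in AngII+BAI, 707 in AngII+GAS and 539 in AngII+VAL. Neighbours in the order of means, within the groups that received Ang II, did not differ beyond their spread on the log2 scale (exact permutation p between 0.230 and 0.778). The gap between AngII+VAL and Control was the only one with no overlap (exact permutation test, two-sided, p = 0.00794, the smallest that 5 against 5 mice allow, and 0.0992 after adjustment over the 25 neighbour pairs). Among the transcripts of a heart, Acta1 ranked between 27 and 77 in the treated mice, between 20 and 164 in the AngII mice and between 88 and 383 in the Control mice.

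The comparison of AngII with Control asks what the infusion alone changed. Acta1 had a log2 fold change of 2.19 (standard error 0.58, 95% interval 0.90 to 3.49), which is 4.58-fold on the scale of FPKM + 1. It stood in place 23 of 18354 transcripts counted from the highest rise down, and in place 186 by p (limma). Its unadjusted p was 0.00373 and its adjusted p 0.359 (limma), so it did not pass. Acta2 had a log2 fold change of 0.69 (standard error 0.29, 95% interval 0.05 to 1.32), with an unadjusted p of 0.0373 and an adjusted p of 0.521 (limma). At an adjusted p under 0.05, 0 of 3 actins were called, where 0.0381% of all transcripts tested were. At an unadjusted p under 0.05, Acta1 and Acta2 passed, 2 of 3, where 9.13% of all transcripts did. None of the 3 was free of overlap between the groups, as were 2.26% of all transcripts. With all 6 groups in one fit, which shares the estimate of the spread, the same Acta1 fold change had an adjusted p of 0.0301 (limma), and over all alternatives it ranged between 0.0301 and 0.548.

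Set against Control, the treated groups gave Acta1 differences of similar size with less spread. In AngII+ETH hearts Acta1 rose, with a log2 fold change of 2.41 (standard error 0.35, 95% interval 1.62 to 3.20), or 5.31-fold (limma, adjusted p = 0.0313). It stood in place 17 of 18635 transcripts counted from the highest rise down, and in place 30 by p (limma). Of all transcripts, 0.225% were called in this comparison, against 1 of 3 actins. The call was lost in 8 of the 10 fits that left out 1 mouse, namely any AngII+ETH mouse or Control replicate 1, 3 or 5, with adjusted p values up to 0.0832 (limma), while the log2 fold change stayed between 2.21 and 2.67. In AngII+BAI hearts the Acta1 log2 fold change was 2.15 (interval 1.32 to 2.99, unadjusted p = 0.000186, adjusted p = 0.181, limma). A single fit of all 6 groups gave it an adjusted p of 0.0301 (limma). Without AngII+BAI replicate 2, the library with the fewest transcripts at 1 FPKM or more, the log2 fold change was 2.25 (adjusted p = 0.235, limma). In AngII+GAS hearts the Acta1 log2 fold change was 2.09 (interval 1.25 to 2.93, unadjusted p = 0.000261, adjusted p = 0.155, limma). In AngII+VAL hearts it was 1.70 (interval 0.80 to 2.59, unadjusted p = 0.00179, adjusted p = 0.636, limma). The last 3 comparisons had 0 of 3 actins called, where the shares of all transcripts called were 0.0108% for AngII+BAI, 0.0703% for AngII+GAS and 0.0108% for AngII+VAL.

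At an unadjusted p under 0.05, 1 of 3 actins, Acta1, passed in each treated group against Control. The share of all transcripts that did so was 8.88% for AngII+ETH, 8.41% for AngII+BAI, 7.68% for AngII+GAS and 5.62% for AngII+VAL. Acta1 was likewise the 1 of 3 actins whose groups did not overlap in each of these comparisons, where 2.61%, 2.02%, 1.96% and 1.13% of all transcripts did not, in the same order of groups. These comparisons share the 5 Control mice and are not independent of each other.

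Set against AngII, no treated group moved any of the 3 actins past the threshold. The Acta1 log2 fold change was 0.21 in AngII+ETH, with a 95% interval of -0.88 to 1.31 (limma, adjusted p = 0.943). For AngII+BAI it was -0.04, with an interval of -1.17 to 1.09 (adjusted p = 0.987, limma). For AngII+GAS it was -0.11, with an interval of -1.24 to 1.03 (adjusted p = 0.980, limma). The widest difference was that of AngII+VAL, at -0.50 with an interval of -1.67 to 0.68 (adjusted p = 0.911, limma). Every interval is wide and includes 0, so it is not shown that a treatment left Acta1 as it was. The sign of the first 3 turned with single mice. Without AngII replicate 1 the AngII+ETH value was -0.23, and without AngII replicate 2 the values were 0.34 for AngII+BAI and 0.27 for AngII+GAS, with smaller turns for other mice of these groups. The AngII+VAL value kept its sign without any one mouse, between -0.94 and -0.12.

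In these 4 comparisons with AngII, 0 of 3 actins were called at an adjusted p under 0.05 and 0 of 3 at an unadjusted p under 0.05 (limma). Of all transcripts, 0.132% were called for AngII+ETH, 0.0165% for AngII+BAI, 0.022% for AngII+GAS and 0.022% for AngII+VAL. At an unadjusted p under 0.05 the shares of all transcripts were 8.29%, 9.75%, 6.21% and 6.23%, in the same order of groups.

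**Figure D2:**
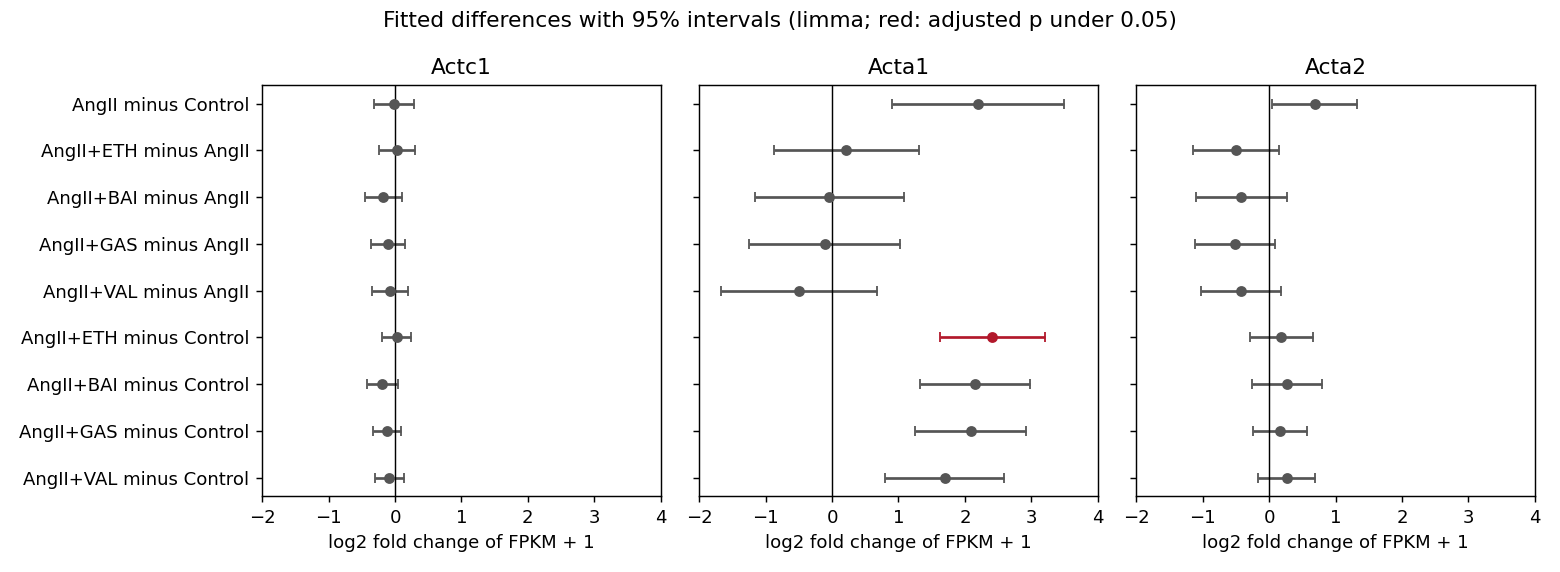
Log2 fold change of FPKM + 1 (horizontal axes) of Actc1, Acta1 and Acta2 in 9 comparisons (rows), each with its 95% interval from limma over 5 mice per group. Acta1 lay between 1.70 and 2.41 in the 5 comparisons with Control, with AngII+ETH (red) the only one at an adjusted p under 0.05, and the intervals of all comparisons with AngII include 0.

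The Acta1 to Actc1 ratio compares the skeletal with the cardiac isoform within a heart and does not depend on how the library was scaled. In Acta1 FPKM per 100 FPKM of Actc1, it was 15.9, 11.1, 13.4, 17.2 and 10.4 in the AngII+ETH mice. The AngII+BAI mice had ratios of 11.4, 11.1, 11.2, 15.5 and 16.8. The AngII+GAS mice had ratios of 8.48, 16.1, 12.5, 11.5 and 11.6. In all of these, skeletal actin was at 8.48 or more for every 100 of the cardiac form. The AngII+VAL mice had ratios of 6.94, 7.97, 6.78, 14.9 and 9.40, so 4 of these 5 hearts were below 10 per 100. The AngII mice had ratios of 3.61, 29.2, 8.66, 17.8 and 14.2, against 2.22, 3.44, 1.86, 5.16 and 1.46 in the Control mice. The AngII group thus held both the highest ratio of the 30 hearts and, in replicate 1, a ratio inside the Control range.

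The ratio was higher in each treated group than in Control, and in each of these comparisons all 5 treated hearts were above all 5 Control hearts. It averaged 13.6 ± 2.95 per 100 in AngII+ETH, against 2.83 ± 1.5 in Control (SD, n = 5 each), a difference of 2.39 on the log2 scale (standard error 0.35) or 5.26-fold. In AngII+BAI it averaged 13.2 ± 2.73 per 100, which is 2.35 higher on the log2 scale (standard error 0.35) or 5.10-fold. In AngII+GAS it averaged 12 ± 2.72 per 100, which is 2.21 higher (standard error 0.36) or 4.64-fold. In AngII+VAL it averaged 9.20 ± 3.35 per 100, which is 1.79 higher (standard error 0.39) or 3.46-fold. Each of these had the smallest p that 5 against 5 mice allow (exact permutation test, two-sided, p = 0.00794), with an adjusted p of 0.0357 over the 18 ratio comparisons made. With medians in place of means the adjusted p was 0.122 (exact permutation test). With 1 mouse left out the smallest adjusted p that could be reached was 0.0571, so those fits cannot test the call. These ratio comparisons share the 5 Control mice and are not independent of each other. Their adjustment covers far fewer tests than that over all transcripts, under which Acta1 alone passed against Control in AngII+ETH only (limma, adjusted p = 0.0313). Taken as neighbours in the order of groups, AngII+VAL and Control had the same p but an adjusted p of 0.0992 over the 25 neighbour pairs (exact permutation test).

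In the AngII group alone the ratio averaged 14.7 ± 9.74 per 100, against 2.83 ± 1.5 in Control (SD, n = 5 each), a difference of 2.22 on the log2 scale (standard error 0.61) or 4.65-fold. Of the 5 AngII hearts, 4 were above every Control heart (exact permutation test, two-sided, p = 0.0159, adjusted p = 0.0571). Against AngII, the log2 difference of the ratio was 0.18 ± 0.53 for AngII+ETH, 0.14 ± 0.53 for AngII+BAI, -0.00286 ± 0.53 for AngII+GAS and -0.43 ± 0.55 for AngII+VAL (± standard error, n = 5 each). The exact permutation p of these differences was 0.452 or more, with an adjusted p of 0.582 or more. As 9.20 per 100 in AngII+VAL was the lowest mean among the groups that received Ang II, it was set beside its neighbour AngII+GAS at 12 per 100. This gap was also within the spread (exact permutation p = 0.143, adjusted p = 0.929). The wider gaps to AngII+ETH at 13.6 and AngII+BAI at 13.2 per 100 were not tested.

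**Figure D3:**
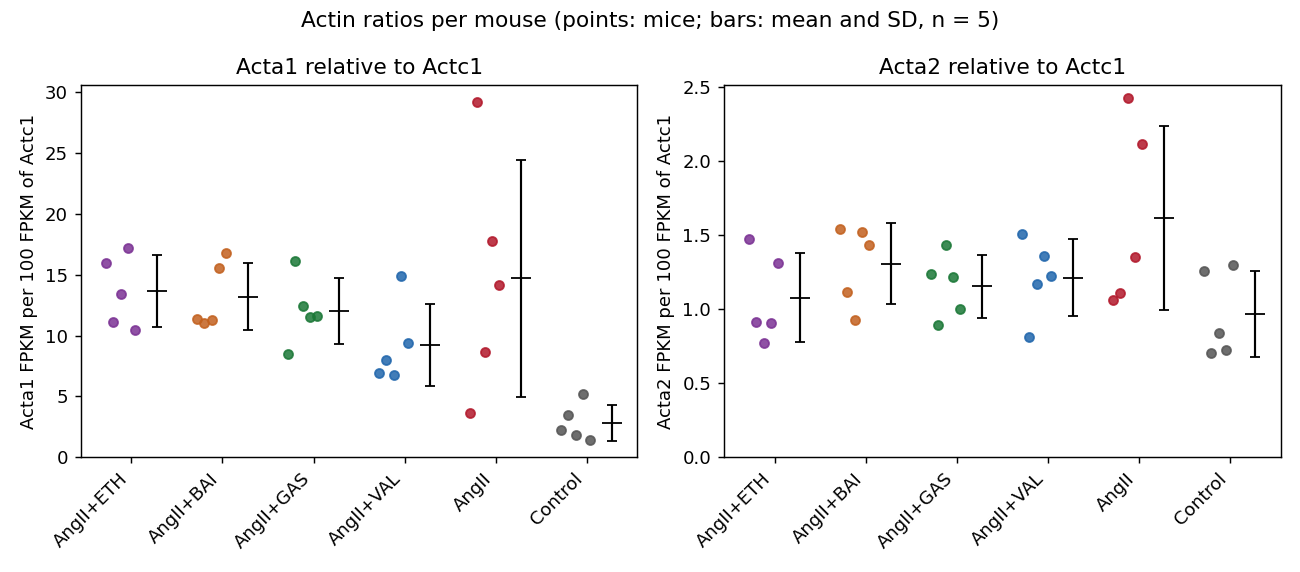
Acta1 (left) and Acta2 (right) in FPKM per 100 FPKM of Actc1 (vertical axes, linear) in the 6 groups (horizontal axes), with 1 point per mouse and the mean with SD (n = 5) beside the points. On the left every treated heart is at 6.78 or more and every Control heart at 5.16 or less, while the AngII hearts spread between 3.61 and 29.2, and on the right all groups overlap.

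The spread of Acta1 between mice of 1 group was also unequal. The highest AngII mouse had 9.65 times the Acta1 level of the lowest, and the SD of log2 Acta1 was 1.19 in AngII. In the treated groups the SD of log2 Acta1 was 0.26 for AngII+ETH, 0.41 for AngII+BAI, 0.41 for AngII+GAS and 0.54 for AngII+VAL, and in Control it was 0.84. Whether these spreads differ was not tested. Over all 6 groups, the within-group SD of log2(FPKM + 1) was 0.68 for Acta1, 0.40 for Acta2 and 0.16 for Actc1, against a median of 0.23 over 2832 Ensembl transcripts with a mean of at least 10 FPKM. Acta1 thus varied more between mice of a group than 80.6% of these transcripts, and Actc1 more than 29.6%. AngII replicate 1, the low mouse, had a library sum of 619497 FPKM, the lowest of its group beside 620426 to 645192 FPKM in the other AngII mice, and 17883 transcripts at 1 FPKM or more, inside their range. Its Actc1, at 6215 FPKM, was the median of the AngII group.

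Acta2, the smooth muscle isoform, was the least abundant of the 3 actins in every heart. Its level was 85.4, 61.2, 50.8, 61.6 and 95.4 FPKM in the AngII+ETH mice. In the AngII+BAI mice it was 92.4, 56.8, 48.3, 92.5 and 89.4 FPKM. In the AngII+GAS mice it was 67.6, 56.4, 89.5, 71.1 and 61.0 FPKM. Each of these groups overlapped with all the others. The AngII+VAL mice had 87.0, 55.2, 64.7, 87.8 and 75.2 FPKM of Acta2. The AngII mice had 66.1, 82.1, 195, 79.7 and 108 FPKM, against 74.0, 56.4, 48.7, 48.0 and 83.4 FPKM in the Control mice. AngII replicates 3 and 5 were the only hearts of the 30 above 100 FPKM.

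Mean Acta2 was 70.9 ± 18.7 FPKM in AngII+ETH, 75.9 ± 21.5 in AngII+BAI, 69.1 ± 12.7 in AngII+GAS, 74.0 ± 14.1 in AngII+VAL, 106 ± 51.7 in AngII and 62.1 ± 15.9 in Control (SD, n = 5 each). AngII was highest by mean, followed by AngII+BAI, AngII+VAL, AngII+ETH, AngII+GAS and Control. No neighbours in this order differed beyond their spread (exact permutation p between 0.230 and 0.992). Against AngII, the Acta2 log2 fold change was -0.50 for AngII+ETH, -0.42 for AngII+BAI, -0.52 for AngII+GAS and -0.42 for AngII+VAL, with adjusted p values between 0.702 and 0.871 (limma). These 4 values share the AngII mice, and without AngII replicate 3 they were -0.26, -0.17, -0.27 and -0.18, in the same order. Without that mouse the AngII value against Control was 0.44, in place of 0.69. The Acta2 to Actc1 ratio averaged 1.61 ± 0.62 per 100 in AngII, against 0.964 ± 0.289 in Control (SD, n = 5 each, exact permutation p = 0.0635, adjusted p = 0.190). It averaged 1.08 to 1.31 per 100 in the treated groups, and none of its 9 comparisons passed, with adjusted p values of 0.190 or more (exact permutation test).

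As a share of the 3 actins together, Acta1 was lowest in Control. Neither this share nor the total was tested. Acta1 made up 11.8 ± 2.26% of the summed FPKM of the 3 actins in AngII+ETH, 11.5 ± 2.08% in AngII+BAI, 10.6 ± 2.15% in AngII+GAS, 8.27 ± 2.69% in AngII+VAL, 12.2 ± 7.21% in AngII and 2.71 ± 1.40% in Control (SD, n = 5 each). Actc1 held between 76.7% and 97.4% of that sum in every mouse. The sum itself was 7594 ± 529 FPKM in AngII+ETH, 6567 ± 755 in AngII+BAI, 6800 ± 531 in AngII+GAS, 6799 ± 686 in AngII+VAL, 7606 ± 1605 in AngII and 6804 ± 958 in Control. In AngII replicate 2, the heart with the most Acta1, this isoform reached 22.4% of the sum.

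Across mice the members were only loosely related. Over all 30 mice, log2 Acta1 and log2 Actc1 had a Pearson r of 0.14 and a Spearman rho of 0.24, with adjusted permutation p values of 0.458 and 0.290 over the 3 pairs of members. With group means subtracted, so that only differences between mice of a group remain, r was 0.45 and rho 0.57 (n = 30, labels permuted within groups, adjusted permutation p = 0.263 for r and 0.0143 for rho), and r was 0.57 without the 2 mice farthest from the median of Actc1. The rank relation therefore passed and the linear one did not. The adjustment covered the 3 pairs only, separately for r and rho and separately with and without group means subtracted. Both values of a mouse share its library scaling, whose part in this relation was not tested. Acta2 had rho 0.26 with Actc1 and 0.03 with Acta1 after the same subtraction (adjusted permutation p = 0.340 and 0.887), and r of 0.28 and 0.03 (adjusted permutation p = 0.407 and 0.901).

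**Figure D4:**
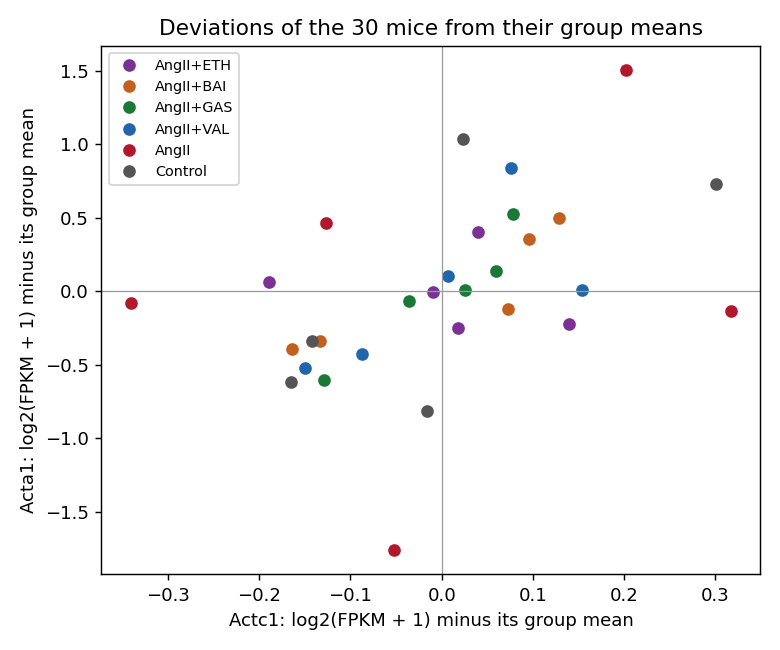
Deviation of each of the 30 mice from its group mean in log2(FPKM + 1), for Actc1 (horizontal axis) and Acta1 (vertical axis), coloured by group. Mice above their group in Actc1 tended to be above it in Acta1 (rho = 0.57, r = 0.45), and the mouse farthest from 0 is an AngII mouse on each axis.

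The transcript whose pattern over the 30 libraries was most like a member was found by Pearson correlation of log2(FPKM + 1), among 2831 other Ensembl transcripts with a mean of at least 10 FPKM. For Acta1 it was ENSMUST00000024755, with r = 0.88, and r = 0.79 after group means were subtracted. That transcript averaged 81.5 ± 5.20 FPKM in AngII+ETH, 65.0 ± 7.32 in AngII+BAI, 74.1 ± 6.36 in AngII+GAS, 69.0 ± 9.34 in AngII+VAL, 71.6 ± 13.9 in AngII and 49.3 ± 6.96 in Control (SD, n = 5 each). It was lowest in Control, as Acta1 was, but it was picked for its likeness to Acta1 over these same libraries, so this is not separate evidence. For Actc1 the most alike was ENSMUST00000028755 (r = 0.77) and for Acta2 ENSMUST00000088552 (r = 0.82). A correlation above 0.7 was found with 30 of these transcripts for Acta1, 8 for Actc1 and 2 for Acta2. The correlations are descriptions over libraries that share their groups and scaling, and the files used here give these identifiers no gene names.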

How the data were processed

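Cardiac RNA of 30 mice was depleted of ribosomal RNA and sequenced by the submitters. The deposited tables hold 1 value per transcript and mouse, made by the authors and read here as FPKM. TPM from which rows were removed would also give sums below a full total, and was not told apart from it. Build mm10 and limma are listed in the submitters' processing notes, the paper names DESeq, and the aligner, assembler, quantifier and annotation are not given in the sources used here. A count test could not be run on such values, which also leave the depth unknown, so precision rests on the spread between 5 mice. Groups came from the labels, and replicates were numbered in accession order.

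Each of 9 pairs of groups was fitted with limma 3.58.1 in R 4.3.3 on log2(FPKM + 1) with a mean-variance trend, two-sided, keeping transcripts that reached 1 in 5 or more libraries of the pair. The Benjamini-Hochberg adjustment covered every transcript in a fit. Fold changes on this scale understate those of low transcripts. Ratios, and neighbours in the order of groups, were compared on the log2 scale by exact permutation tests in scipy 1.17.1 (Python 3.11.15). Figures came from matplotlib 3.10.9, and correlations were tested by 100000 permutations. The transcripts named were the members and, for each, the Ensembl transcript most correlated with it. The members and lists were chosen with earlier results of these data known. Alternatives were quantile normalization, rescaling to the same sum, no trend, no filter, a mean filter of 5, one fit of all 6 groups, a pseudocount of 0.1, ratios on a linear scale, with 1 added or by medians, and each mouse left out in turn.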

Additional observations from a re-analysis of the deposited data

Results flagged for a closer look

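In 42 checks of the actin levels, the 2 ratios and 2 library measures within groups of 5 mice, 1 value lay far from the rest of its group, and chance flags about 1 in 20 such checks. In AngII+BAI replicate 2, 16808 transcripts reached 1 FPKM, and the rest of that group had between 18495 and 18688. Its Actc1 and Acta1 levels, 5093 and 564 FPKM, were the lowest of the AngII+BAI group, and its ratio was 11.1 Acta1 per 100 Actc1, against 11.2 to 16.8 in the other mice of the group. AngII+BAI replicate 3 was close to it, at 5202 FPKM of Actc1 and 585 FPKM of Acta1. The library sum of replicate 2, 653969 FPKM, was the highest of the group. Whether the fewer transcripts of replicate 2 bear on its actin levels was not tested.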

How the results depend on the processing

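No paired analysis was possible because nothing in the labels links animals across groups. The depth behind the FPKM values is unknown and 5 mice per group limit every test. Acta2 kept its direction in all 9 comparisons under every alternative and passed in none. With all 6 groups in one fit, 1 actin was called for AngII minus Control and 1 for AngII+BAI minus Control, in place of 0 (Acta1, log2 fold changes of 2.19 and 2.15, limma), where the shared spread and the larger set tested are the alternative's own construction. With 1 mouse left out, 0 to 1 actins were called for AngII+ETH minus Control.

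The Acta1 to Actc1 difference on the log2 scale, by medians, was 2.60 for AngII+ETH, 2.36 for AngII+BAI, 2.39 for AngII+GAS and 1.85 for AngII+VAL against Control, none past the threshold, and with 1 mouse left out it ran from 2.19 to 2.65, 2.15 to 2.61, 2.01 to 2.47 and 1.59 to 2.05, in the same order. Against AngII the sign of this ratio turned for AngII+ETH, AngII+BAI and AngII+GAS, while for AngII+VAL it stayed negative under every alternative. For AngII+ETH and AngII+BAI it was -0.0106 and -0.0150 as a linear ratio and -0.0799 and -0.32 by medians, and with 1 mouse left out the log2 difference ran from -0.25 to 0.51 for AngII+ETH, -0.29 to 0.46 for AngII+BAI and -0.43 to 0.32 for AngII+GAS. The Acta2 to Actc1 difference of AngII+BAI minus AngII was 0.0869 by medians. The cause of these turns was not tested, and none passed a threshold.

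Fold changes near 0 also changed sign. For Acta1 in AngII+BAI minus AngII the log2 value was 0.0595 after quantile normalization and 0.00896 after rescaling to the same sum, and with 1 mouse left out it ran from -0.48 to 0.34, from -0.23 to 0.59 for AngII+ETH minus AngII and from -0.55 to 0.27 for AngII+GAS minus AngII. For Actc1 the values with 1 mouse left out ran from -0.0934 to 0.0708 for AngII minus Control, -0.0484 to 0.116 for AngII+ETH minus AngII, -0.156 to 0.00843 for AngII+VAL minus AngII and -0.0189 to 0.0976 for AngII+ETH minus Control.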

Other observations

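The ratio of Acta1 to Acta2, skeletal over smooth muscle actin, entered no comparison. In FPKM of Acta1 per FPKM of Acta2 it averaged 13.5 ± 4.60 in AngII+ETH, 10.3 ± 1.86 in AngII+BAI, 11 ± 4.33 in AngII+GAS, 7.79 ± 2.67 in AngII+VAL, 10.6 ± 9.64 in AngII and 3.42 ± 2.51 in Control (SD, n = 5 each). The highest value, 26.4, was that of AngII replicate 2, which had the most Acta1 of the 30 hearts, and the lowest was 1.12, in Control replicate 5. AngII replicate 3, with the most Acta2 of the 30 hearts at 195 FPKM, had a ratio of 3.57, and AngII replicate 1, with the least Acta1 of its group, had a ratio of 3.39. The AngII mouse highest in Acta1 and the one highest in Acta2 were thus different animals.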
